A study of Sus scrofa with 15 samples.

Results

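The genes described here encode the machinery that removes stored messenger RNA from the oocyte and early embryo. They were 10 genes taken by gene symbol from a table of normalised read counts of pig somatic cell nuclear transfer (SCNT) embryos and their donor cells: BTG4, CNOT1, CNOT6, CNOT6L, CNOT7, CNOT8, ZFP36L2, YTHDF2, PAN2 and DCP1A. Each had 1 entry, so 10 of the 28224 known genes of the table were used, and the table held 43294 entries in all once unnamed assembled transcripts were included. They were chosen by symbol and not by a threshold on these values, with earlier results of the data known.

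An oocyte stops transcription before it is fertilised or reconstructed and lives on messenger RNA that it made earlier and stored with short poly(A) tails. During the maternal-to-zygotic transition these stored messages are cleared while the embryo's own genome takes over. Clearance starts at the poly(A) tail: PAN2, with PAN3, trims long tails, and the CCR4-NOT complex, built on the scaffold CNOT1, removes the rest through the deadenylases CNOT7 or CNOT8 and CNOT6 or CNOT6L. BTG4, an oocyte member of the BTG/TOB family, tethers CNOT7 and CNOT8 to messages that are being translated. ZFP36L2 and YTHDF2 bring the complex to messages with AU-rich elements and with m6A marks, and DCP1A helps to remove the cap once the tail is short.

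The table covered 15 libraries in 5 groups of 3. PFF were primary porcine fetal fibroblasts, the nuclear donors of every embryo group. SCNT4c and SCNT8c were untreated SCNT embryos collected at the 4-cell and 8-cell stages, each library being a pool of 30 embryos. SCNT4c-KG embryos were injected with KDM4A mRNA, which encodes a histone demethylase, at 1000 ng/ul 5 h after activation, and were cultured with GSK126, an inhibitor of the histone methyltransferase EZH2, at 0.1 uM until 48 h. SCNT4c-TDG embryos were made from PFF that had taken up a doxycycline-inducible TDG vector and survived puromycin, and doxycycline at 500 ng/ml was present from 40 to 72 h; TDG encodes a glycosylase that acts in DNA demethylation. Injection with another mRNA, vector alone and doxycycline alone were not analysed here, so the agents of a group cannot be told apart from its handling. The SCNT4c columns could not be matched to numbered replicates and are called libraries a, b and c. Nothing in the labels says that the libraries of a group came from separate batches of oocytes, so the p-values measure the spread between these libraries, and, because each library is a pool, fewer cells of a kind and less RNA per cell cannot be told apart.

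Each library held 12354649 to 22868038 reads counted in genes, lowest in SCNT4c-KG, at 12354649 to 15390472. The genes supplied by the treatments followed the labels: TDG was at a mean of 55575 in SCNT4c-TDG against 1713 in SCNT4c, and KDM4A at 1448 in SCNT4c-KG against 194. The descriptions of the SCNT4c-KG samples carry the names that the table gives to the SCNT4c columns, so groups were taken from the titles and the column names. KDM4A was also higher in SCNT4c-TDG, at 775 (limma log2 fold change 2.08, adjusted p = 0.00375), and TDG in SCNT4c-KG, at 4366 (1.46, adjusted p = 0.00195). The summed level of 10 fibroblast markers was 3.02e+06 to 3.36e+06 in PFF and 779 to 4259 in the embryo libraries. The summed level of 15 oocyte transcripts was 11.5 to 25.03 in PFF and 52935 to 239762 in embryos, but GDF9, BMP15 and MOS were at 3 reads or fewer over each embryo group. SCNT8c replicate 3 resembled SCNT4c (mean correlation 0.859) more than the other SCNT8c libraries (0.772), so values for SCNT8c are given with and without it where it decides them.

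Upstream sequence was read as the 250 bases before the RefSeq start of each gene in the pig assembly Sscrofa11.1. An annotated start need not be the start of transcription: at YTHDF2 the locus of the authors' assembly began at 85716259, upstream of the whole window, with no other known gene in it, and that window is left out. The assembled loci of BTG4, CNOT7, CNOT8 and CNOT6L, which hold other genes too, also run past their windows, and that of DCP1A ends inside its window, so parts of these windows may be transcribed. CpG dinucleotides, the sites of DNA methylation in mammals, were counted because TDG excises bases that derive from methylated cytosine. The letters CG read the same on both strands. Across 19531 such windows the median held 12 CpG, the quartiles were 4 and 22, and 95.8% held at least 1. BTG4 held 8, CNOT7 held 13 and PAN2 held 5, and these 3 are shown because BTG4 is the oocyte member and because CNOT7 and PAN2 changed in opposite directions in both treated groups. CNOT8, CNOT6L, CNOT1, CNOT6, DCP1A and ZFP36L2 held 1, 4, 17, 24, 25 and 29. The sequences run 5′ to 3′ on the gene's strand, with each CpG in capitals, from chr9:39281328-39281577 (minus strand) for BTG4, chr17:4950094-4950343 (minus) for CNOT7 and chr5:21730529-21730778 (minus) for PAN2.
BTG4: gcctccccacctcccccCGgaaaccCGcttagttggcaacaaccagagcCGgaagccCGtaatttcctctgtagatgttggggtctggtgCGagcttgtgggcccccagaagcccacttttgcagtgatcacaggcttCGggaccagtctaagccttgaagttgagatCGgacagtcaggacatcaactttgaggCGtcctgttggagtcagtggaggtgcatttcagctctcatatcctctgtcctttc
CNOT7: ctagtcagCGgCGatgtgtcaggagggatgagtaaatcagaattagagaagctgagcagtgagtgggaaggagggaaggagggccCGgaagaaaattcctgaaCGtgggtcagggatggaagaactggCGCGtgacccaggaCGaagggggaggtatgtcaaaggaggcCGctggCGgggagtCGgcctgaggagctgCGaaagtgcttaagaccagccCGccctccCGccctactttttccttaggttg
PAN2: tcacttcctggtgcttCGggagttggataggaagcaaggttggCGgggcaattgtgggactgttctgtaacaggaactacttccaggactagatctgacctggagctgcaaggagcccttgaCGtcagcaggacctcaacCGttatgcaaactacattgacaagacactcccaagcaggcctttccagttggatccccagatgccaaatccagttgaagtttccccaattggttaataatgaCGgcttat
The count of CpG is a description of these windows; methylation was not analysed here.

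Of the 10 genes, 7 had an entry well above 0 in untreated 4-cell SCNT embryos. The named entries of CNOT8, CNOT6L and YTHDF2 were at or near 0 there. CNOT7 rose and PAN2 fell in both SCNT4c-KG and SCNT4c-TDG; DCP1A fell in SCNT4c-KG; CNOT1 and CNOT6 rose and ZFP36L2 fell in SCNT4c-TDG. A gene was called changed when its adjusted p was below 0.05 over all entries tested and its fold change exceeded 2, in limma on log2(value + 1) over the 12 embryo libraries. Entries needed a mean of at least 10, which 8 of the 10 genes had; CNOT6L and YTHDF2 did not. CNOT8 reached it only through SCNT4c-KG, where it was high, so it is left out of the counts and its values are a description. In SCNT4c-KG against SCNT4c, 3 of the other 7 were changed, where 37.2% of all 18942 entries tested were, a share near that background; 1 was higher and 2 lower, where 17.6% and 19.6% of entries were, and 5 of the 7 had groups that did not overlap, where 53.9% of entries had. In SCNT4c-TDG against SCNT4c, 5 of the 7 were changed, where 33.3% of all entries were; 3 were higher and 2 lower, where 15.7% and 17.6% were, and 6 did not overlap, where 58.4% of entries did not. In SCNT8c against SCNT4c, 1 of the 7 was changed, where 5.79% of all entries were, and 2 did not overlap, where 23.5% did not. Without SCNT8c replicate 3, 2 of the 7 were changed, where 6133 of 18990 entries were. The median log2 fold change of the 7 genes and of all entries was -0.93 and -0.30 in SCNT4c-KG, 0.89 and -0.26 in SCNT4c-TDG, and -0.47 and -0.31 in SCNT8c. All of these comparisons share the SCNT4c libraries. The entries tested include unnamed assembled transcripts, whereas the 7 genes are named, so the shares compare unlike sets.

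**Figure D1:**
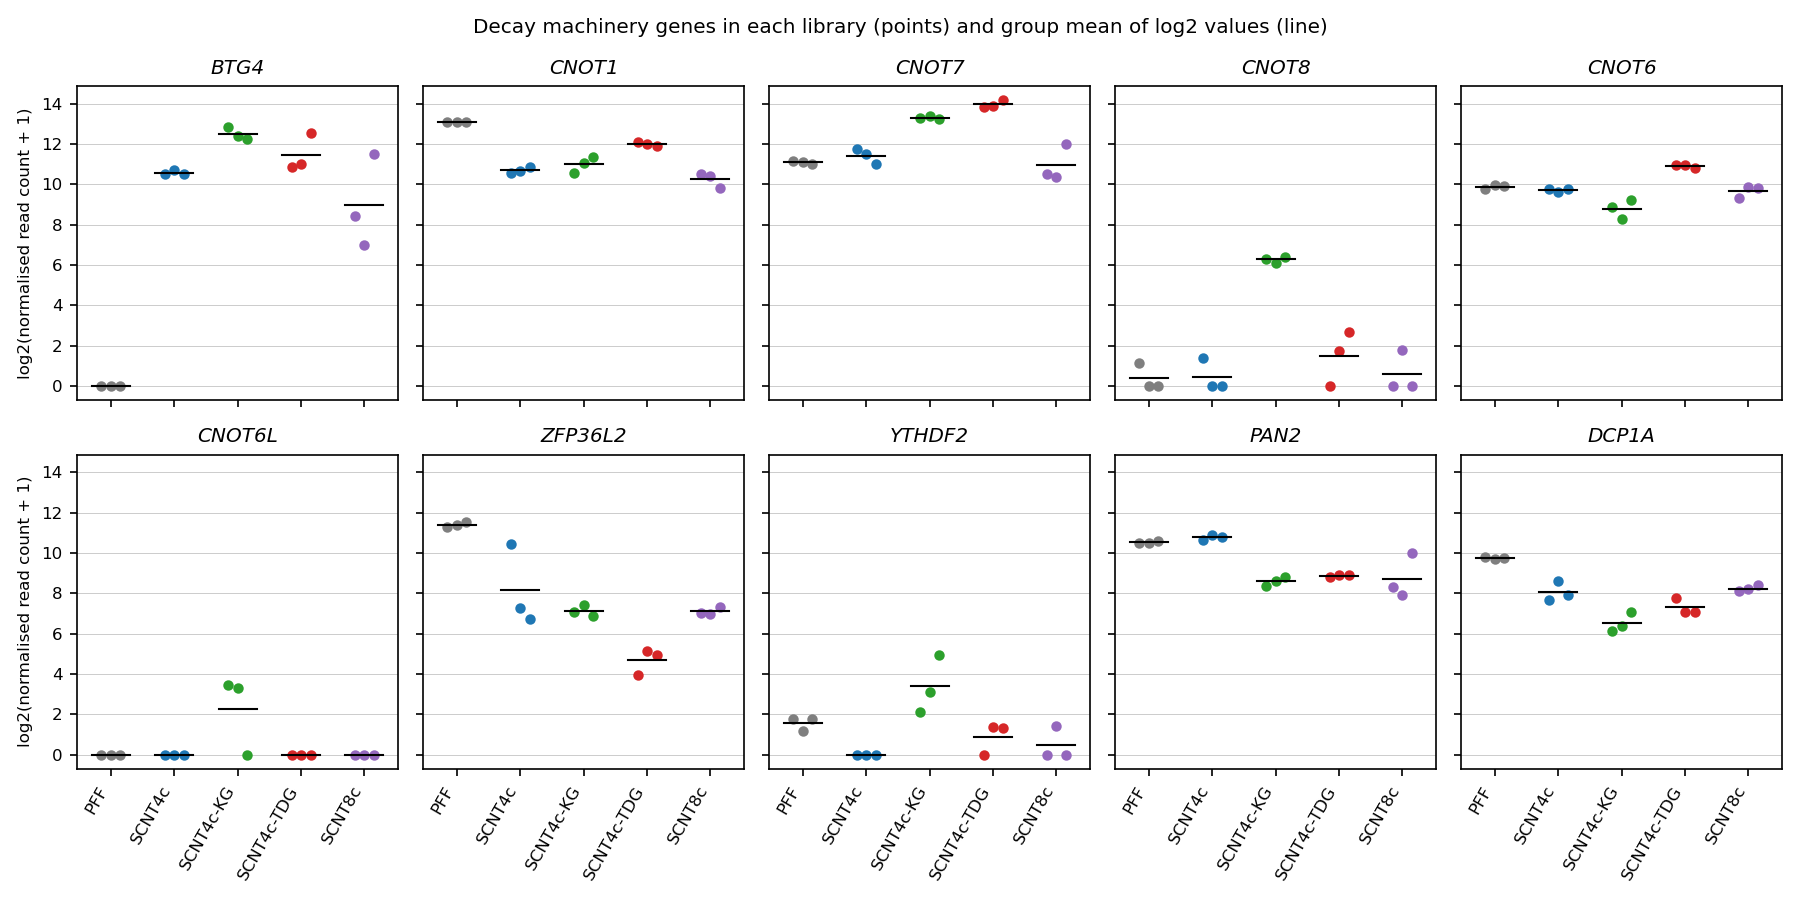
Normalised read count of the 10 decay genes on a log2(value + 1) axis, 1 point per library and a line at the group mean of the log2 values. CNOT7 sits above SCNT4c in every SCNT4c-KG and SCNT4c-TDG library and PAN2 below it, BTG4 is at 0 in the 3 PFF libraries, and CNOT6L, CNOT8 and YTHDF2 lie near 0 in most groups.

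The plot of values by library places the genes on different levels. On a per-length scale, as normalised reads per kilobase of exon, the mean level in SCNT4c was 1253 for CNOT7, 639 for BTG4, 254 for ZFP36L2, 244 for PAN2, 193 for CNOT1, 119 for CNOT6 and 44.2 for DCP1A. The place of ZFP36L2 rests on library a: it was at 641, 71.8 and 48.7 per kilobase in libraries a, b and c. In SCNT4c-TDG the per-kilobase mean of CNOT7 was 7202 and that of BTG4 1376 (781, 856 and 2489 in replicates 1, 2 and 3), against 477 for CNOT1, 270 for CNOT6 and 64.3 for PAN2. In PFF the per-kilobase order was ZFP36L2 at 1253, CNOT1 at 1019, CNOT7 at 977, PAN2 at 204, DCP1A at 136 and CNOT6 at 133.

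BTG4 (chr9:39253116-39281327, minus strand), the adaptor, was an embryo transcript in this table. Its normalised read count was 0 in each of the 3 PFF libraries and was 1480, 1668 and 1439 in SCNT4c libraries a, b and c. It was 7428, 5485 and 4866 in SCNT4c-KG, 1870, 2050 and 5960 in SCNT4c-TDG and 349, 127 and 2929 in SCNT8c. Every SCNT4c-KG and SCNT4c-TDG library was above every SCNT4c library, whereas SCNT8c overlapped all other embryo groups but SCNT4c-KG. SCNT4c held 5519 reads of BTG4 over the group and PFF none, so that, with a floor of 3 reads over the PFF group, it was at least 1244-fold higher in SCNT4c. The 3.88-fold higher mean of SCNT4c-KG over SCNT4c was not called (log2 fold change 1.93, SE 0.78, 95% interval 0.27 to 3.60, adjusted p = 0.0626), although DESeq2 and a fit of these groups alone called it (adjusted p = 0.0122 and 8.07e-05). Neither was SCNT4c-TDG against SCNT4c (0.89, SE 0.78, adjusted p = 0.397), a mean that rests on replicate 3 and is 0.36 without it. SCNT8c against SCNT4c gave -1.59 (SE 0.78, adjusted p = 0.193) and -2.85 (adjusted p = 0.00041) without SCNT8c replicate 3, the library that holds most of the SCNT8c reads of BTG4. Against SCNT8c, BTG4 was higher in SCNT4c-KG (3.52, SE 0.78, adjusted p = 0.00356, 5.22-fold by means), in a comparison where 28.2% of all entries were changed; the log2 fold change was 4.78 without SCNT8c replicate 3 and 2.53 without replicate 2. It was also called higher in SCNT4c-TDG than in SCNT8c (2.48, SE 0.78, adjusted p = 0.0295, and 3.74 without SCNT8c replicate 3), but those groups overlapped and 9 of 18 alternatives did not call it, among them those without SCNT4c-TDG replicate 2 or 3 or without SCNT8c replicate 1 or 2 (adjusted p = 0.0523, 0.138, 0.0970 and 0.111).

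Another entry of the BTG4 locus bears on these values. The authors' assembly placed an unnamed transcript in the locus that also holds C9H11orf88, LOC110255430 and MIR34C-1, and its reads cannot be assigned to 1 of these genes. The unnamed entry was at 3683, 2830 and 2582 in SCNT4c, at 132 to 318 in SCNT4c-KG, at 181 to 368 in SCNT4c-TDG and at 806, 312 and 3558 in SCNT8c, and was 0 in PFF. Of the sum of both entries it took 66.5% in SCNT4c and 57.9% in SCNT8c, but 3.93% in SCNT4c-KG and 7.29% in SCNT4c-TDG. With both entries summed, the log2 fold change against SCNT4c was 0.42 in SCNT4c-KG (adjusted p = 0.652) and -0.55 in SCNT4c-TDG (adjusted p = 0.558), the latter with its sign turned. Against SCNT8c the sum gave 2.03 in SCNT4c-KG (adjusted p = 0.0381) and 1.06 in SCNT4c-TDG (adjusted p = 0.288, no longer called). The higher BTG4 count of treated embryos and the lower count of the unnamed entry thus stand side by side at this locus, and how much of either is BTG4 message was not tested.

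**Figure D2:**
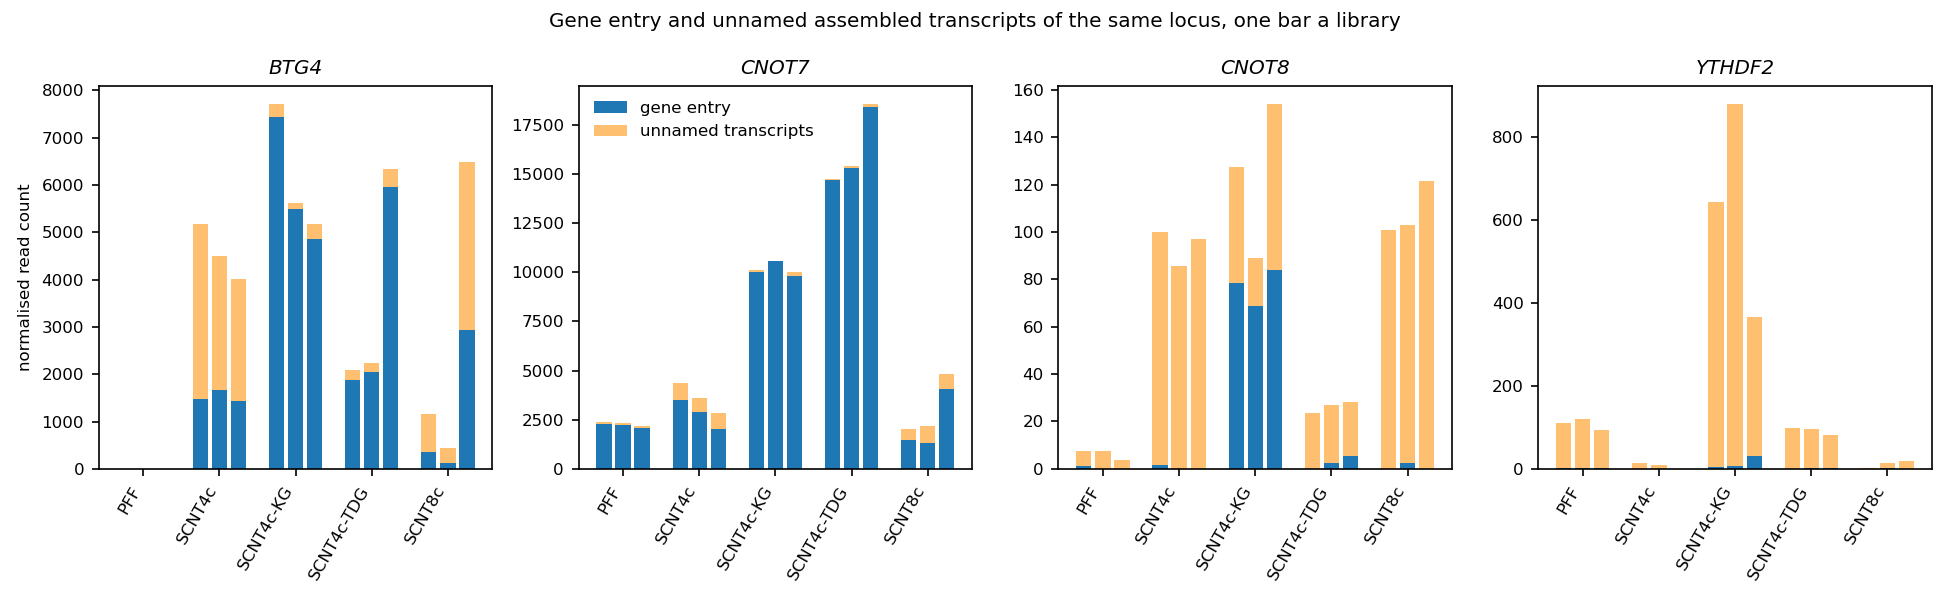
Normalised read count of the gene entry and, stacked on it, of the unnamed assembled transcripts of the same locus, 1 bar per library, for BTG4, CNOT7, CNOT8 and YTHDF2, on linear axes from 0 that differ between panels. At BTG4 the unnamed entry takes 66.5% of the sum in SCNT4c and 3.93% in SCNT4c-KG, while at YTHDF2 it takes nearly all of the sum in each group.

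CNOT7 (chr17:4934379-4950093, minus strand), a catalytic deadenylase subunit and the partner of BTG4, gave the clearest rise. It was at 3490, 2882 and 2049 in SCNT4c libraries a, b and c, at 10035, 10575 and 9809 in SCNT4c-KG and at 14692, 15284 and 18420 in SCNT4c-TDG. It was at 2264, 2214 and 2086 in PFF and at 1446, 1328 and 4035 in SCNT8c. All 6 treated libraries lay above all untreated embryos and PFF, and PFF, SCNT4c and SCNT8c overlapped. CNOT7 rose 3.61-fold by means in SCNT4c-KG (log2 fold change 1.89, SE 0.36, adjusted p = 0.000948) and 5.75-fold in SCNT4c-TDG (2.55, SE 0.36, adjusted p = 8.96e-05), and no alternative lost either call. The groups SCNT4c-TDG and SCNT4c-KG did not overlap, but their difference was not called (0.66, SE 0.36, 95% interval -0.11 to 1.43, adjusted p = 0.235); quantile scaling called it (1.44, adjusted p = 0.0132), and the same total in each library gave 1.03 (adjusted p = 0.0508). SCNT8c was not called against SCNT4c (-0.47, 95% interval -1.24 to 0.30); without SCNT8c replicate 3 the value was -0.98 (adjusted p = 0.00455), which passed the p threshold but not the fold limit. Unnamed transcripts of its locus, which also holds VPS37A, took 22.1% of the sum in SCNT4c and 1.04% and 0.648% in SCNT4c-KG and SCNT4c-TDG; with them added, CNOT7 was still called in both.

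CNOT8 (chr16:68329785-68352020, minus strand), the paralogue that can take the place of CNOT7, was close to 0 outside SCNT4c-KG. It was at 78.4, 68.5 and 84.1 in SCNT4c-KG, at 0, 2.30 and 5.36 in SCNT4c-TDG and at 2.49 or less in every other library. SCNT4c-KG held 161 reads of it and SCNT4c 2, a ratio of 139 with an exact counting interval of 37.7 to 1154, and SCNT4c-TDG held 10. Because that group carried CNOT8 over the minimum mean, no test is drawn from these values. Unnamed transcripts at this locus, which also holds LARP1, FAXDC2 and GEMIN5, were at 93.8 in SCNT4c, 46.4 in SCNT4c-KG, 23.6 in SCNT4c-TDG and 108 in SCNT8c. With them added, the sum in SCNT4c-KG gave a log2 fold change of 0.35 against SCNT4c (adjusted p = 0.575) and 0.15 against SCNT8c (adjusted p = 0.835). The sum was lower in SCNT4c-TDG than in SCNT4c (-1.81, adjusted p = 0.00747). Unnamed transcripts took 99.4% of it in SCNT4c and 90.3% in SCNT4c-TDG, and their reads cannot be assigned to 1 of these genes. No fold is given between PFF, SCNT4c and SCNT8c, which held 3 reads or fewer each.

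CNOT6 (chr2:78131236-78202518, minus strand), the deadenylase of the other catalytic site, separated the treatments. It was at 868, 786 and 875 in SCNT4c, at 467, 308 and 594 in SCNT4c-KG and at 1963, 2005 and 1772 in SCNT4c-TDG. It was at 859, 1002 and 957 in PFF and at 646, 949 and 897 in SCNT8c. The SCNT4c-TDG libraries were above and the SCNT4c-KG libraries below all others. CNOT6 rose in SCNT4c-TDG (log2 fold change 1.18, SE 0.31, adjusted p = 0.00913) in every alternative run. In SCNT4c-KG its value of -0.93 (SE 0.31, adjusted p = 0.0287) passed the p threshold but not the fold limit. The direct comparison of SCNT4c-TDG with SCNT4c-KG, where 16.2% of entries were changed, called a 4.19-fold difference by means (2.11, SE 0.31, adjusted p = 0.000455). SCNT8c differed from SCNT4c by -0.04 (95% interval -0.70 to 0.63). LOC110259664 overlaps CNOT6 in RefSeq, so reads of that stretch could belong to either.

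CNOT6L (chr8:73191721-73335779, minus strand), its paralogue, had no reads in PFF, SCNT4c, SCNT4c-TDG and SCNT8c, and 13 reads over SCNT4c-KG, with values of 9.80, 8.88 and 0. Unnamed transcripts of the locus, which also holds MRPL1 and FRAS1, were at means of 68.3 in PFF, 35.6 in SCNT4c, 14.0 in SCNT4c-KG, 23.2 in SCNT4c-TDG and 94.8 in SCNT8c. An entry at 0 in cultured fibroblasts and embryos alike says only that no read was assigned to it, and CNOT6L was under the minimum mean. The sum of its entry and the unnamed transcripts was compared with SCNT8c in limma. That sum was lower in SCNT4c-KG (-2.49, adjusted p = 0.0288) and SCNT4c-TDG (-2.30, adjusted p = 0.0451). The unnamed transcripts took 100% of the sum in SCNT8c and SCNT4c-TDG and 69.2% in SCNT4c-KG. Their reads cannot be assigned to 1 gene of the locus, so no fall of CNOT6L is read from it.

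CNOT1 (chr6:20271593-20372300, minus strand), the scaffold, was most abundant in PFF. It was at 8855, 8882 and 8760 in PFF, at 1533, 1632 and 1851 in SCNT4c and at 4429, 4138 and 3833 in SCNT4c-TDG. It was at 1534, 2128 and 2653 in SCNT4c-KG and at 1474, 1344 and 895 in SCNT8c. PFF stood above SCNT4c-TDG, and SCNT4c-TDG above the other embryos, without overlap. CNOT1 rose 2.47-fold by means in SCNT4c-TDG (log2 fold change 1.31, SE 0.29, adjusted p = 0.00286), while SCNT4c-KG overlapped SCNT4c (0.30, SE 0.29, adjusted p = 0.426). The difference between the treatments was called (1.01, SE 0.29, adjusted p = 0.0267) but lost in 6 of 18 alternatives: under a replicate block and without SCNT4c-KG replicate 1 or 2 or any 1 of the SCNT4c-TDG libraries (adjusted p = 0.0576 to 0.120).

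ZFP36L2 (chr3:97200395-97203094, plus strand), which brings the complex to AU-rich elements, was at 2504, 2700 and 2937 in PFF, at 1388, 156 and 105 in SCNT4c libraries a, b and c and at 128, 126 and 161 in SCNT8c. It was at 134, 171 and 115 in SCNT4c-KG and at 14.2, 34.5 and 29.8 in SCNT4c-TDG. SCNT4c library a stood far above the other embryo libraries, and the SCNT4c-TDG libraries were below all others. ZFP36L2 fell in SCNT4c-TDG (log2 fold change -3.48, SE 0.76, adjusted p = 0.00263); without library a the value was -2.34 and still called. It was lower in SCNT4c-TDG than in SCNT4c-KG (-2.45, SE 0.76, adjusted p = 0.0383), a call lost in 9 of 18 alternatives, including the removal of any 1 of these 6 libraries (adjusted p = 0.0698 to 0.145). In SCNT4c-KG and SCNT8c the values against SCNT4c were -1.03 and -1.04 (adjusted p = 0.294 and 0.373) and became 0.11 and 0.10 without library a. No unnamed transcript lay in its locus.

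YTHDF2 (chr6:85717147-85756750, plus strand), the m6A reader, had 5 reads over PFF, none over SCNT4c, 4 over SCNT4c-TDG and 2 over SCNT8c on its own entry, and 29 over SCNT4c-KG, with values of 3.27, 7.61 and 29.9. Its locus held 1 unnamed transcript and no other known gene. That transcript was at 640, 871 and 335 in SCNT4c-KG, at 98.7, 94.4 and 81.1 in SCNT4c-TDG, at 14.99, 8.74 and 0 in SCNT4c, at 1.87, 11.6 and 19.0 in SCNT8c and at 109, 120 and 90.6 in PFF. Both treated groups were above both untreated embryo groups without overlap on this transcript, which took 97.8% of the sum in SCNT4c-KG and 98.1% in PFF. With it added to the gene entry, YTHDF2 was higher than SCNT4c in SCNT4c-KG (log2 fold change 6.78, adjusted p = 8.47e-05) and in SCNT4c-TDG (4.11, adjusted p = 0.00408).

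PAN2 (chr5:21712222-21730528, minus strand), the deadenylase that acts on long tails, fell in both treated groups and was called in SCNT8c. It was at 1598, 1913 and 1773 in SCNT4c and at 1426, 1434 and 1553 in PFF. It was at 322, 392 and 443 in SCNT4c-KG, at 447, 473 and 473 in SCNT4c-TDG and at 314, 239 and 1011 in SCNT8c. The SCNT4c libraries were above all others without overlap, and SCNT8c replicate 3 lay between the other SCNT8c libraries and SCNT4c. PAN2 was 4.57-fold lower by means in SCNT4c-KG (log2 fold change -2.20, SE 0.44, adjusted p = 0.00127) and 3.79-fold lower in SCNT4c-TDG (-1.92, SE 0.44, adjusted p = 0.00359), with no alternative losing either call. Its value of -2.05 (SE 0.44, adjusted p = 0.0240) in SCNT8c was lost in 7 of 16 alternatives, including the edgeR test (adjusted p = 0.0560), a fit of these groups alone (0.198) and the removal of any 1 library but SCNT8c replicate 3 (0.0596 to 0.0944). Without that replicate it was -2.68 (adjusted p = 3.22e-05). The locus held no other gene and no unnamed transcript.

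DCP1A (chr13:35392592-35455639, minus strand), the decapping cofactor, was at 201, 391 and 242 in SCNT4c, at 68.6, 81.2 and 134 in SCNT4c-KG and at 216, 135 and 132 in SCNT4c-TDG. It was at 881, 827 and 858 in PFF and at 276, 292 and 334 in SCNT8c. SCNT4c-KG was below SCNT4c and SCNT8c without overlap, whereas SCNT4c-TDG overlapped SCNT4c. DCP1A fell in SCNT4c-KG (log2 fold change -1.55, SE 0.43, adjusted p = 0.0116), a call lost without SCNT4c library b (-1.27, adjusted p = 0.0647). In SCNT4c-TDG the value was -0.77 (95% interval -1.69 to 0.16, adjusted p = 0.184), and against SCNT8c DCP1A was lower in SCNT4c-KG (-1.71, SE 0.43, adjusted p = 0.00816) in every alternative run.

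**Figure D3:**
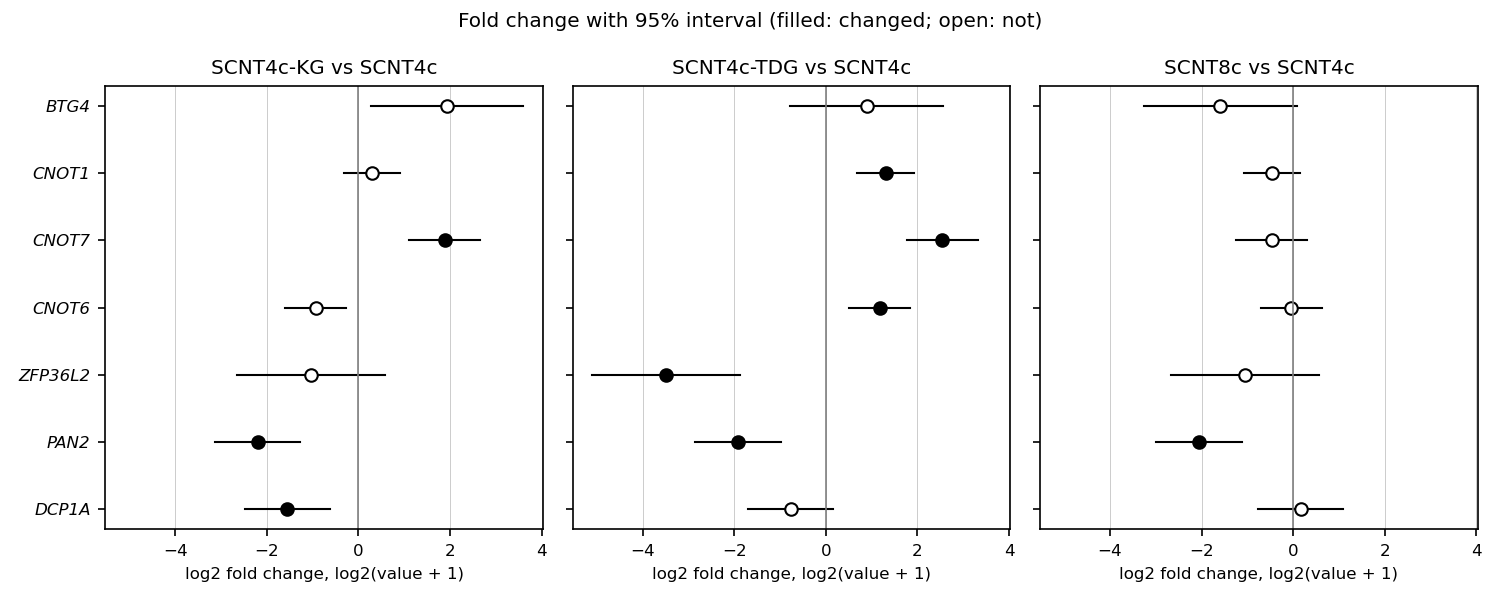
Log2 fold change against SCNT4c on the log2(value + 1) scale with 95% intervals for the 7 decay genes that reached the minimum mean through more than 1 group, in SCNT4c-KG, SCNT4c-TDG and SCNT8c; filled points were changed. CNOT7 lies at 1.89 and 2.55 and PAN2 at -2.20 and -1.92 in the treated groups, and PAN2, at -2.05, is the filled point of SCNT8c.

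The fold changes against SCNT4c differed between the treatments for 3 genes when these were compared directly, with 3 of 7 genes changed in SCNT4c-TDG against SCNT4c-KG, where 16.2% of all entries were. CNOT1 and CNOT6 were higher, where 7.07% of entries were, and ZFP36L2 lower, where 9.13% were. Of all entries called, 1340 were higher and 1730 lower, a split that turned to 2050 and 1140 with the same total in each library; 5 of the 7 did not overlap, where 44.4% did not. Relative to SCNT8c, 3 of 7 were changed in SCNT4c-KG, where 28.2% of all entries were: BTG4 and CNOT7 higher and DCP1A lower, and 5 of the 7 did not overlap, where 36.7% did not. In SCNT4c-TDG 5 of 7 were changed relative to SCNT8c, where 24.7% of all entries were: BTG4, CNOT1 (3.34-fold by means), CNOT6 (2.30-fold) and CNOT7 (7.11-fold) were higher and ZFP36L2 (5.28-fold) lower, where 13.7% of entries were higher and 11.0% lower, and 5 of the 7 did not overlap, where 40.6% did not. Without SCNT8c replicate 3 the log2 fold change of CNOT7 was 3.53 in place of 3.02. That call of ZFP36L2 was lost without SCNT4c-TDG replicate 1 or 3 or SCNT8c replicate 1 (adjusted p = 0.0573 to 0.114).

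Against their donor cells, SCNT4c embryos held more BTG4 and less CNOT1, ZFP36L2 and DCP1A. In this fit of 6 libraries 7 of the 10 genes reached the minimum mean, BTG4 only through SCNT4c. Of the other 6, 3 were changed, where 78.2% of all 19287 entries were. All 3 were lower, where 38.5% of entries were lower and 39.7% higher, and 4 of the 6 did not overlap between the groups, where 84.5% of entries did not. CNOT1 was 5.28-fold lower by means in SCNT4c (log2 fold change -2.41, SE 0.10, adjusted p = 3.77e-06), and this call held in every alternative. ZFP36L2 (-3.25, SE 0.95, adjusted p = 0.0184) and DCP1A (-1.67, SE 0.27, adjusted p = 0.00138) lost their calls in 7 and 3 of 16 alternatives, for ZFP36L2 among them those without PFF replicate 2 or 3 or SCNT4c library b or c (adjusted p = 0.0514 to 0.0761). Without SCNT4c library a the value for ZFP36L2 was -4.39. CNOT7 (0.33), PAN2 (0.26) and CNOT6 (-0.15) were not called. DESeq2 and edgeR called CNOT7 (1.14 and 1.10) and PAN2 (1.05 and 1.01) higher, as did quantile scaling for PAN2 (1.05), and the value for CNOT6 turned its sign under 4 other scalings, 0.47 to 0.84. PFF RNA was extracted by another method than embryo RNA, so the cell type and the extraction cannot be told apart.

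Around these genes, 103 other genes of mRNA decay were listed by role, 100 were in the table and 76 reached the minimum mean. Of these, 8 did so only through the group where they were highest and are left out of the counts. The list holds named genes, whereas all entries include unnamed assembled transcripts, so the shares below compare unlike sets. Shares among named genes alone were not computed. In SCNT4c-KG 26 of the other 68 were higher and 7 lower, where 17.6% of all entries were higher and 19.6% lower. In SCNT4c-TDG 30 were higher and 8 lower, where 15.7% and 17.6% of entries were. In SCNT8c 6 were higher and none lower, where 2.62% and 3.16% of entries were. Here limma called none lower, with 5 at an unadjusted p under 0.05, and edgeR and DESeq2 called 0 lower. Without SCNT8c replicate 3, 23 of the list were changed in either direction, where 6133 of 18990 entries were. The split of all entries called in SCNT8c, 497 higher and 599 lower, turned to 1962 and 771 with DESeq2, 669 and 173 with edgeR and 729 and 551 with quantile scaling. The median log2 fold change of the list and of all entries was 0.80 and -0.30 in SCNT4c-KG, 1.08 and -0.26 in SCNT4c-TDG, and 0.17 and -0.31 in SCNT8c.

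**Figure D4:**
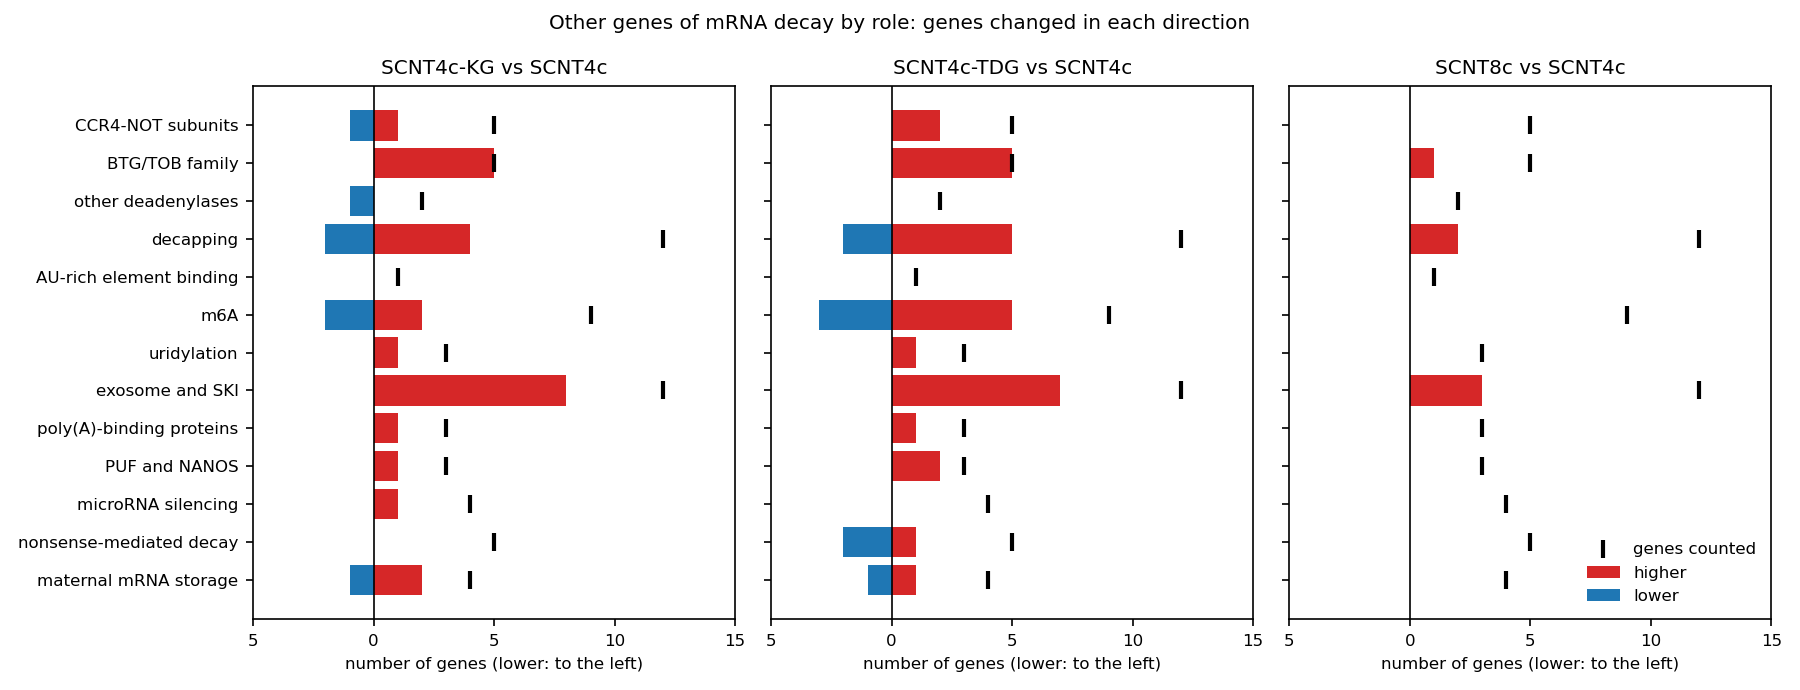
Number of other mRNA decay genes changed in each direction against SCNT4c, by role, with the number counted as a tick; higher to the right and lower to the left. All 5 BTG/TOB genes are on the higher side in SCNT4c-KG and SCNT4c-TDG, and no gene is on the lower side in SCNT8c.

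The BTG/TOB family, whose members bind the same deadenylases as BTG4, had 5 of 5 genes higher in both treated groups, where 17.6% and 15.7% of entries were. In SCNT8c 1 of the 5 was higher, where 2.62% of entries were. It was BTG3, a call lost in limma with only these groups in the fit (1.31, adjusted p = 0.198). TOB1 was at 31.0 ± 15.02 in SCNT4c, 1911 ± 183 in SCNT4c-KG and 2167 ± 93.6 in SCNT4c-TDG (SD, n = 3), which gave log2 fold changes of 6.02 and 6.20 (SE 0.53 each, adjusted p = 7.32e-07 and 9.42e-07). BTG2 was at 20.0 ± 5.94, 849 ± 65.9 and 97.3 ± 18.3 (5.37 and 2.25, SE 0.48 each). The other three are named after their values were seen: BTG3 (3.25 and 3.06), TOB2 (1.61 and 1.59) and BTG1 (5.21 and 4.09). BTG1, at a mean of 0.817 in SCNT4c, had its sign turned to -0.77 and -1.18 when unnamed transcripts of its locus were added, and the other 4 kept their calls under that change.

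Of 5 other subunits of CCR4-NOT tested, 2 were changed in each treated group, where 37.2% and 33.3% of entries were. CNOT9 was higher in SCNT4c-KG (1.68) and SCNT4c-TDG (1.13), CNOT2 in SCNT4c-TDG (1.21), and CNOT4, a ubiquitin ligase of the complex, was lower in SCNT4c-KG (-1.36); these too are named after their values were seen. The calls of CNOT9 and CNOT2 in SCNT4c-TDG were lost without SCNT4c library a or SCNT4c-TDG replicate 1 or 2 (adjusted p = 0.0627 to 0.107), and that of CNOT4 without SCNT4c library b or c or SCNT4c-KG replicate 1 or 3 (0.0596 to 0.0919). With unnamed transcripts of its locus added the value for CNOT4 turned to 0.10. PAN3, the partner of PAN2, was lower in SCNT4c-KG (-1.37, SE 0.49, adjusted p = 0.0373), a call lost in 8 of 16 alternatives, and was at 734 ± 85.2 in SCNT4c-TDG against 802 ± 42.0 in SCNT4c (SD, n = 3).

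Downstream of deadenylation, 8 of 12 exosome and SKI genes were higher in SCNT4c-KG and 7 of 12 in SCNT4c-TDG, where 17.6% and 15.7% of entries were, among them EXOSC2, a subunit of the nuclease core, at 151 ± 37.8 in SCNT4c-TDG against 10.1 ± 3.54 in SCNT4c (3.80, SE 0.60, adjusted p = 0.000237). LSM7, of the ring that binds deadenylated ends, was at 268 ± 91.1 in SCNT4c, 15878 ± 5023 in SCNT4c-KG (5.90) and 4459 ± 1065 in SCNT4c-TDG (4.09). EDC3, an enhancer of decapping, was lower in SCNT4c-KG (-1.76, SE 0.36, adjusted p = 0.00150). Of 9 m6A genes, 2 were higher and 2 lower in SCNT4c-KG, where 17.6% and 19.6% of entries were, shares near that background. In SCNT4c-TDG 5 of them were higher and 3 lower, where 15.7% and 17.6% of entries were. The reader YTHDF3 was higher in SCNT4c-TDG (3.82, and 1.79 with unnamed transcripts of its locus added), the binding protein IGF2BP3 was lower in both (-2.15 and -2.56), and the eraser ALKBH5 was lower in SCNT4c-TDG (-2.18). The writer METTL3 was at a mean of 136 in SCNT4c-KG and 2.55 in SCNT4c, and is given as a description because it reached the minimum mean only through SCNT4c-KG. UPF3B, of nonsense-mediated decay, was lower in SCNT4c-TDG (-1.82). Of 5 genes of that pathway, 1 was higher and 2 lower there, where 15.7% and 17.6% of entries were. In SCNT4c-KG 0 of the 5 were changed, where 37.2% of entries were. EIF4ENIF1, which holds stored messages in repression, was lower in SCNT4c-KG (-2.48) and SCNT4c-TDG (-1.62). Of 4 genes of message storage, 2 were higher and 1 lower in SCNT4c-KG, where 17.6% and 19.6% of entries were. In SCNT4c-TDG 1 of the 4 was higher and 1 lower, where 15.7% and 17.6% of entries were, shares near that background. Of 12 decapping genes, 4 were higher and 2 lower in SCNT4c-KG, where 17.6% and 19.6% of entries were. In SCNT4c-TDG 5 of the 12 were higher and 2 lower, where 15.7% and 17.6% of entries were. The lower counts are near that background. In SCNT8c, EXOSC3 (2.86), LSM2 (2.31), EXOSC8 (1.95) and WDR61 (1.50) were higher, each lost in 5 to 7 of 16 alternatives.

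Of the 15 oocyte transcripts, 10 reached the minimum mean, 2 of them only through the group where they were highest. Of the other 8, in SCNT4c-KG 2 were higher and 1 lower, where 17.6% and 19.6% of entries were, and in SCNT4c-TDG 1 was higher and 4 lower, where 15.7% and 17.6% were. In SCNT8c 2 were lower, where 3.16% of entries were, ZP2 and NPM2, whose calls were lost in 8 and 9 of 16 alternatives, and limma, edgeR and DESeq2 called 0 higher, with 0 at an unadjusted p under 0.05 in limma. DPPA3, a maternal chromatin factor, was at 4897 ± 1167 in SCNT4c, 23345 ± 1902 in SCNT4c-KG and 34780 ± 3396 in SCNT4c-TDG (SD, n = 3). NPM2, a histone chaperone of the egg, was at 8384 ± 2711 in SCNT4c and 413 ± 32.3 in SCNT4c-TDG (-4.29, SE 0.60). These genes are named after their values were seen.

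The pattern of BTG4 across the 12 embryo libraries was most like those of RRM2B (Pearson r = 0.985 on log2(value + 1)), TEC (0.969), OOEP (0.963), TOMM7 (0.960) and FREM1 (0.957), out of 9806 named entries ranked. Among the decay genes r with BTG4 was highest for CNOT7 (0.790) and lowest for DCP1A (-0.660). These correlations describe 12 libraries that fall into 4 groups and share their scaling, and no test was made on them.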

How the data were processed

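RNA from PFF and from pools of embryos was amplified, sequenced as paired ends and processed by the authors with the tools their notes list (CASAVA 1.8.2, Trimmomatic 0.39, STAR 2.5.3a, StringTie 2.1.2, HTSeq and DESeq2, on Sscrofa11.1). The deposited values are a signal: the authors' HTSeq read counts divided by 1 factor per library, so that whole reads could be recovered for every value within 0.01. Whether counting used strand is not given in the sources used here, so genes that overlap (C9H11orf88, MIR34C-1 and BTG4, LOC110259664 and CNOT6, VPS37A and CNOT7, GEMIN5 and CNOT8, MRPL1 and CNOT6L) cannot be told apart there. A read was assigned to a gene or an unnamed StringTie transcript, which splits a locus. From 43535 entries 241 repeats were removed.

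Values were tested with limma 3.58.1 in R 4.3.3 with an intensity trend on log2(value + 1), which understates the change of low genes, on entries with a mean of at least 10. The 12 embryo libraries shared 1 fit, PFF and SCNT4c another, and p was adjusted by Benjamini-Hochberg over all entries tested in each of 7 comparisons. Alternatives were pseudocounts of 0.1 and 10, filters of none and 50, quantile and total scaling, edgeR 4.0.16 and DESeq2 1.42.0 on recovered reads, fits of other groups, no fold limit, locus sums, a replicate block and each library left out. With 3 against 3 libraries an exact permutation test cannot go below 0.1. Counting intervals and floors (3 reads over a group) cover counting error only.

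Whether replicate numbers pair libraries was not settled. The 9 correlations of same-numbered deviations ran from -0.061 to 0.196, and differently numbered libraries were not compared. The 10 genes and all lists were chosen with earlier results of these data known. Named besides them were KDM4A and TDG, the 4 largest rises and falls of the decay list with groups that did not overlap and a mean of at least 100, and the 5 entries most like BTG4; genes outside this rule are marked. Library fits were made on the labels' titles.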

Additional observations from a re-analysis of the deposited data

How the results depend on the processing

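Of 1799 alternatives to 103 values of single genes, 1649 kept the direction and the side of the threshold, 95 lost a call, 22 gained one and 33 turned the sign. SCNT8c against SCNT4c was the comparison that moved most. Its 1 changed decay gene became 0 with edgeR and with only these groups in the fit, its 6 other decay genes became 12 with DESeq2 and 0 with only these groups, and its 1096 entries became 2733 with DESeq2, 601 with all entries above 0, 1662 with a pseudocount of 10 and 0 with only these groups, where 3582 had an unadjusted p under 0.05. With only these groups, SCNT4c-TDG against SCNT4c-KG called 4989 entries in place of 3070 and 21 other decay genes in place of 12, and SCNT4c-KG against SCNT8c called 3379 in place of 5335. Decay genes changed in SCNT4c-KG against SCNT4c became 5 in place of 3 with DESeq2. A minimum mean of 50 gave 10020 in place of 15083 in SCNT4c against PFF.

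With 1 library left out, SCNT8c against SCNT4c gave 0 to 2 decay genes, 0 to 23 other decay genes and 31 to 6133 entries, the highest of each without SCNT8c replicate 3; the entries were 174, 31 and 234 without SCNT4c library a, b or c and at least 41 without an SCNT8c replicate. SCNT4c-TDG against SCNT4c-KG gave 1 to 2, 8 to 13 and 1794 to 2521, SCNT4c-TDG against SCNT8c 3 to 5 decay genes.

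Signs turned only among values that were not called, apart from BTG1 and CNOT4. With unnamed transcripts of the locus added, BTG4 in SCNT4c-TDG became -0.55, CNOT8 -1.81 in SCNT4c-TDG against SCNT4c and -2.01 against SCNT8c, BTG1 -0.77 and -1.18 in SCNT4c-KG and SCNT4c-TDG, and CNOT4 0.10 in SCNT4c-KG. CNOT6 in SCNT8c against SCNT4c became 0.23 (DESeq2), 0.13 (edgeR) and 0.016 (same total), and against PFF 0.63, 0.59, 0.47 and, with quantile scaling, 0.84. ZFP36L2 in SCNT4c-KG against SCNT8c became -0.056, -0.026, -0.135 and -0.089 in that order. PAN2 in SCNT4c-TDG against SCNT8c became -0.058 and -0.046 (DESeq2, edgeR) and CNOT8 -0.37 (quantile).

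With 1 library left out, the values that turned ran from -0.15 to 0.13 for CNOT6, -0.46 to 0.60 for CNOT8 (-0.081 without SCNT4c library b or c, -0.46 to 0.45 without an SCNT8c replicate), -1.75 to 0.10 for ZFP36L2 and -0.040 to 0.44 for DCP1A in SCNT8c against SCNT4c. They ran from -1.74 to 0.11 for ZFP36L2 in SCNT4c-KG against SCNT4c, -0.14 to 0.14 for ZFP36L2 and -0.56 to 0.48 for PAN2 in SCNT4c-KG against SCNT8c, and -0.28 to 0.76 for PAN2 in SCNT4c-TDG against SCNT8c.

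The replicate block gave 2 decay genes, 11 other decay genes and 2772 entries in SCNT4c-TDG against SCNT4c-KG, where the same 9 libraries without it, an alternative chosen after seeing the data, gave 3, 12 and 2726; CNOT1 lost its call there (adjusted p = 0.0576). It gave 3, 25 and 5120 in SCNT4c-KG against SCNT8c and 5, 27 and 4490 in SCNT4c-TDG against SCNT8c. The numbers of the SCNT4c columns do not say which numbered sample they are, so no paired analysis against SCNT4c was possible. Scalings moved the median of all entries by up to 0.89 in SCNT4c against PFF and 0.36 between embryo groups. The causes were not tested, and low counts limit CNOT6L, CNOT8 and YTHDF2.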
